A study of Mus musculus with 8 samples.

Results

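RNA carried by ribosomes was compared between mouse embryonic stem (ES) cells and the epiblast-like aggregates (ELA) that they form on leaving the naive state. Both stages came from the line E14Tg2A (strain 129/Ola). ES cells, at 0 days in vitro, grew on gelatin in medium with fetal calf serum and LIF. ELA were the same line after 2 days in vitro as floating aggregates in the chemically defined minimal medium with N2/B27. Cells of both stages were dissociated with trypsin and held in cycloheximide at 100 μg/mL, which stalls ribosomes, before lysis. Ribosomes were pulled down with an antibody to Rpl10a, a protein of the large ribosomal subunit, and the RNA that came with them (Rpl10a-IP) was depleted of ribosomal RNA and sequenced. All 3160 genes of the table entered the comparison, in 4 of the 8 libraries: 2 of ES Rpl10a-IP and 2 of ELA Rpl10a-IP. The other 4 libraries measured total RNA of the same 2 stages (input) and are used below only to set the change in ribosome-bound RNA beside the change in total RNA.

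In mouse, naive pluripotency is held by a network of transcription factors, among them Nanog, Klf4 and Tfcp2l1, that depends on LIF acting through Stat3. When LIF is withdrawn, FGF signalling through ERK helps to close this network, while Pou5f1 is kept and formative and primed genes such as the de novo DNA methyltransferase Dnmt3b come on. Ribosome pull-down reports how much of an mRNA is bound by ribosomes. This amount moves with the level of the mRNA as well as with its translation, so a gene can gain ribosome-bound RNA with no gain in ribosomes per transcript.

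Reads per gene are not in the deposited table and were worked back from it: in each library every value was a whole multiple of 1 step (within 1e-06), and the step was taken as 1 read. By this estimate the Rpl10a-IP libraries were the deep ones, with between 16076207 and 23483388 reads each on the genes of the table. No gene had fewer than 58 reads in any of the 4, and the medians lay between 2331 and 3466.5 reads per gene. On the same genes the ELA input libraries held 159587 and 410192 reads, so values for total RNA are much less precise. The shallower of these, ELA input replicate 1, was left out of the study's own analysis for poor correlation with the other libraries, lower mapping and read quality and more PCR duplicates. It is kept in the values of total RNA below, and only those named as such are given without it. The labels do not say that replicates were separate cultures, and p-values measure only the spread between these libraries. The table had been filtered by the authors on the spread of the replicate ratios of Rpl10a-IP over input, which makes adjusted p-values too low, and numbers of calls are upper limits. Changes below are log2 differences, ELA minus ES, of normalised counts, and a gene counted as called where limma gave it an adjusted p (Benjamini-Hochberg) below 0.05.

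Most genes of the table changed. Of 3160 genes, 2646 were called (83.7%) in ribosome-bound RNA and 2219 (70.2%) in total RNA (2261 without ELA input replicate 1), and for 2907 (92%) the normalised counts of ES and ELA ribosomes did not overlap. In ribosome-bound RNA 1321 rose (41.8%) and 1325 fell (41.9%), and the median change was −0.01. Beyond 2-fold, 487 genes rose (15.4%) and 444 fell (14.1%). These percentages are the background against which each count of list members is read. The split depended on the scaling: with the size factors as deposited by the authors the median change was −0.14, 1144 genes rose and 1465 fell, and beyond 2-fold 397 rose and 544 fell. Values are relative to the other genes of the table, and an overall rise or fall in ribosome-bound RNA could not be seen. In such a bulk measurement, fewer cells of a type and less RNA per cell cannot be told apart.

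The change followed transcript length closely. Among the 625 shortest of the 3120 genes with a known transcript length (341 to 2205 bases), the median change was −0.84 and 80.0% of the genes fell. Among the 624 longest (5978 bases and above), the median was 0.85 and 77.7% rose. The 3 classes of length between had medians of −0.28, −0.03 and 0.36. Spearman's rank correlation between change and length over these genes, which share the 4 libraries, was 0.605, and with GC content it was near 0 (−0.00217). In total RNA, the medians of the shortest and longest class were −0.42 and 0.34 and the rank correlation was 0.364. The medians of the shortest and longest class were −0.84 and 0.83 between the libraries numbered 1 and −0.86 and 0.90 between those numbered 2. Within stages, the difference between ES Rpl10a-IP replicates 1 and 2 had a rank correlation of 0.328 with length, and that between the ELA replicates 0.0202. A correction of each library for length and GC content was therefore fitted over all genes. It removes any change that goes with length, whatever its source, and leaves the change relative to genes of like length. The corrected median is given beside each list below that has 5 or more measured genes, and how far length accounts for a list's change was not tested. After correction 1179 of 3120 genes rose (37.8%) and 1243 fell (39.8%), and beyond 2-fold 247 rose and 273 fell. Of 2612 calls, 1834 were called again in the same direction and 254 in the other.

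**Figure D1:**
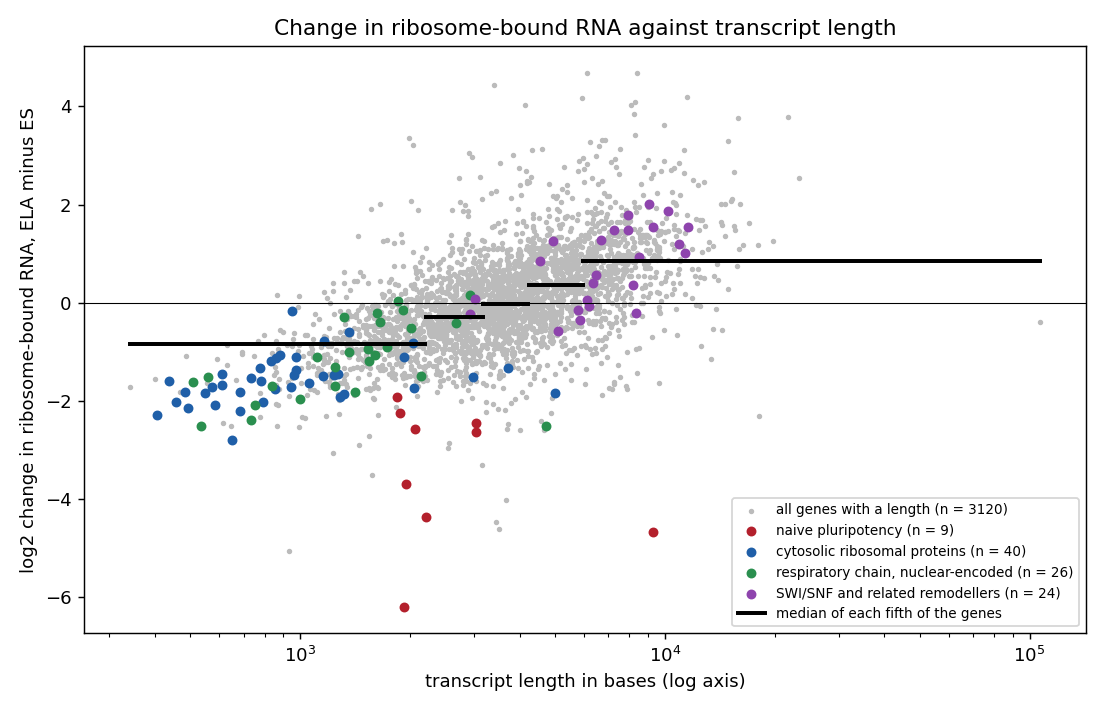
Log2 change in ribosome-bound RNA (vertical axis) against transcript length in bases (horizontal log axis), 1 point per gene, with 4 gene lists in colour. Black bars are the medians of 5 classes of genes by length, which run from −0.84 to 0.85; the naive genes lie far below the bar at their length, and most ribosomal protein genes lie below that of the shortest class.

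Naive pluripotency genes lost ribosome-bound RNA without exception among those measured. The list held 30 genes, of which 9 had values here, and 9 of 9 fell, all beyond 2-fold, with a median change of −2.64 against −0.01 over all genes. The median length was 2064 bases, the corrected median was −2.53, and 9 of 9 were called lower after correction. The corrected changes of Tfcp2l1, Nanog and Dppa2, given uncorrected below, were −5.76, −3.85 and −3.06. In total RNA the median was −2.15.

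Before correction for length, the largest fall in the table was that of Tdgf1 (Cripto), a membrane-bound co-receptor for Nodal. Its normalised counts were 38699 and 38287 in ES and 516 and 534 in ELA, a 73.3-fold fall (log2 change −6.19, SE 0.08, limma adjusted p 6.96e-24). Tfcp2l1, a transcription factor of the naive network downstream of LIF, had 19606 and 19786 in ES and 793 and 755 in ELA. The counts of Nanog, the homeobox factor at the centre of that network, were 9552 and 10456 in ES and 492 and 472 in ELA. In each of these genes the groups lay far apart and the replicates of a stage differed little, so that Tfcp2l1 fell 25.5-fold (−4.67, adjusted p 2.01e-21) and Nanog 20.8-fold (−4.37, adjusted p 1.31e-20). Reads of Nanog pseudogenes may be counted with those of Nanog, and its value is uncertain for that reason.

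Promoters of these genes were chosen after a search of the naive genes and are shown because all 3 hold GGGCGTGG, a motif of the Klf type. The windows run from 250 bases before to 50 bases after the RefSeq start (GRCm38.p6) and are written along the gene's strand. Capitals mark GGGCGTGG and, in Nanog, also TTTGCAT, the core of the octamer to which Pou5f1 binds. Both were searched on both strands, and they do not overlap. Tdgf1 lies at chr9:110946109-110946408, minus strand, Tfcp2l1 at chr1:118627695-118627994, plus strand, and Nanog at chr6:122707239-122707538, plus strand.
Tdgf1: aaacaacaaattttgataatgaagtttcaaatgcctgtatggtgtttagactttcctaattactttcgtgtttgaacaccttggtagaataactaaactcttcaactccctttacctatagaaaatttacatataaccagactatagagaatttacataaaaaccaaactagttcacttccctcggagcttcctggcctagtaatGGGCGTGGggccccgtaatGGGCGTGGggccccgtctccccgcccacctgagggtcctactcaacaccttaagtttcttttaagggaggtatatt
Tfcp2l1: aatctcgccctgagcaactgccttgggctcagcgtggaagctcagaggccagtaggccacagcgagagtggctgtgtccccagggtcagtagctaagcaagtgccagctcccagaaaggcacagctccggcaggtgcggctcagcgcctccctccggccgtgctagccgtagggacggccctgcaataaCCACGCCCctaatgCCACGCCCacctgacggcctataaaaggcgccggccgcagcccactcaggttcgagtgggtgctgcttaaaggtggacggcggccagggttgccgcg
Nanog: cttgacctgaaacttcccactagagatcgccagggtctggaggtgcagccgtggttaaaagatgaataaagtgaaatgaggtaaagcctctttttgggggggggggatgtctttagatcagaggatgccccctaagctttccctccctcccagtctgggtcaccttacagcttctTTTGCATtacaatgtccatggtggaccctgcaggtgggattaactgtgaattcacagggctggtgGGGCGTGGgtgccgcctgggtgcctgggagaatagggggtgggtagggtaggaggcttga
GGGCGTGG occurred in 3 of the 7 naive genes with a promoter entry, in 317 of the 2547 genes of the table with one (12.4%), and in 5.33% of all 32851 promoters. Over the table the median change was −0.04 in genes with this motif and −0.03 in those without. TTTGCAT occurred in 1 of these 7 naive genes, Nanog, in 84 genes of the table (3.3%) and in 4.63% of all promoters. Its median changes were 0.18 in genes with it and −0.04 in those without, and neither pair of medians was tested. A match is a description of the sequence and not a site of binding.

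The other naive genes fell less far. Dppa2, a chromatin-associated protein of early embryos, had 6062 and 6297 in ES and 477 and 468 in ELA (−3.71). Klf4 and Klf2, zinc finger factors of the naive network, fell 5.46-fold and 3.81-fold. Their counts were 5735 and 6029.8 in ES and 991 and 1162 in ELA for Klf4 and 4667 and 5028 in ES and 1299 and 1246 in ELA for Klf2. The groups were well separated in each. Fgf4, the main FGF ligand made by ES cells, had 4003 and 4884 in ES and 663 and 754 in ELA (−2.64), and Tdh, a threonine dehydrogenase on which mouse ES cells rely, had 9869.6 and 10234 in ES and 2376 and 1884 in ELA (−2.25). Bmp4, a ligand that sustains self-renewal together with LIF, had 1254 and 1156 in ES and 149 and 269.8 in ELA (−2.58, SE 0.18), and here the ELA replicates differed most. The change was larger in ribosome-bound than in total RNA for 6 of the 9 genes: Tdgf1 fell (−3.89) in input (difference −2.31, adjusted p 1.04e-13), and Nanog, Dppa2, Bmp4, Tfcp2l1 and Klf4 had differences of −1.48, −1.74, −1.51, −1.03 and −0.78. Without ELA input replicate 1 these 6 differences were −2.28, −1.49, −1.65, −1.79, −0.87 and −0.74. For Fgf4, Tdh and Klf2 the difference was 0.24, −0.11 and −0.30 and missed the threshold.

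**Figure D2:**
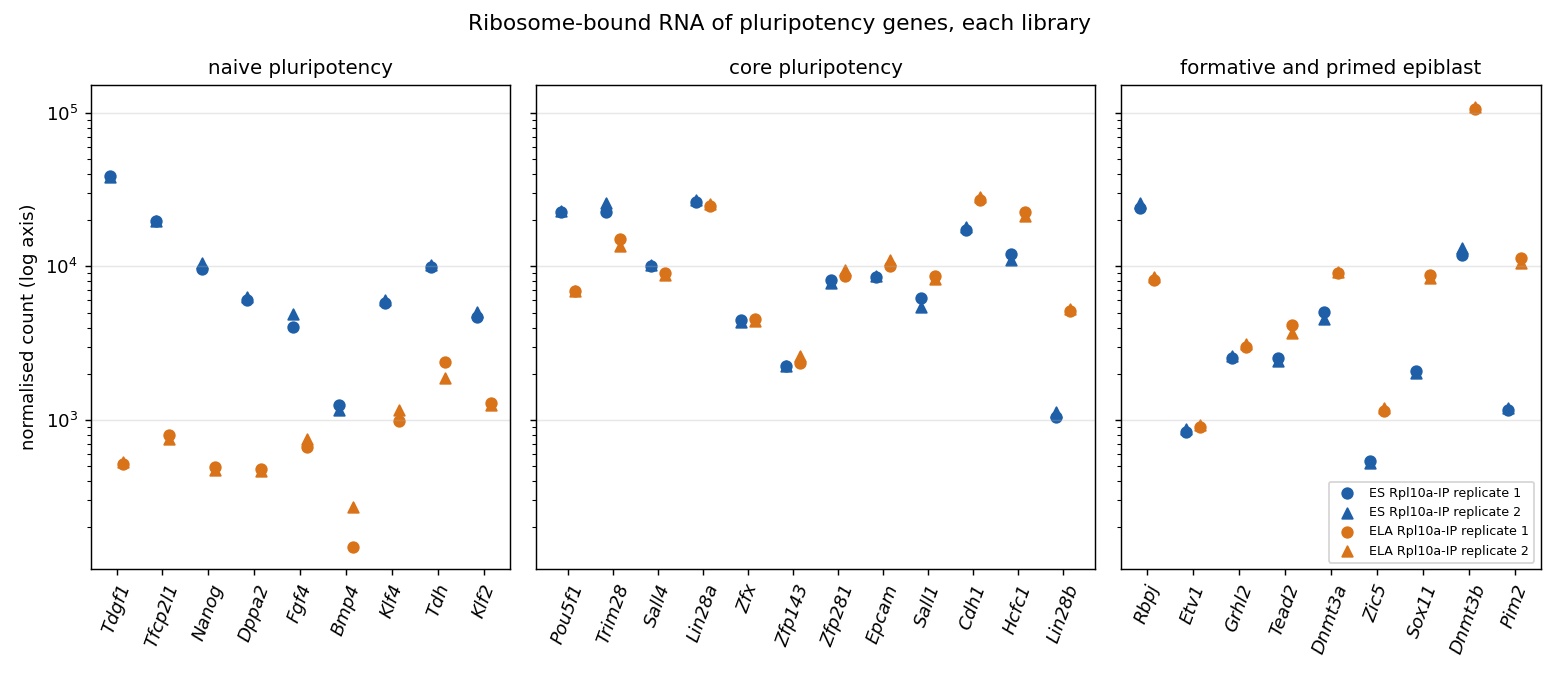
Normalised counts of ribosome-bound RNA (log axis) in each library for the measured naive, core and formative or primed genes, ordered by their change; blue is ES, orange ELA, circles are replicate 1 and triangles replicate 2. In each naive gene both ELA points lie below both ES points, while most core genes lie close together, with Pou5f1 lower and Lin28b higher in ELA, and Dnmt3b, Pim2 and Sox11 lie higher in ELA.

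Core pluripotency genes moved in both directions and mostly little. Of 12 measured of 25 listed, 6 rose and 3 fell, with 1 beyond 2-fold each way and a median of 0.16 (corrected −0.09 with 4 higher and 5 lower, median length 4683 bases). Pou5f1 (Oct4), needed in naive and primed cells alike, had 22699 and 22999 in ES and 6924 and 6941 in ELA. It fell 3.3-fold (−1.72, adjusted p 8.78e-15) and by less in input (−1.18, or −1.28 without ELA input replicate 1), with a corrected change of −0.89. Pseudogenes make its value uncertain in the same way. Trim28, a co-repressor that silences endogenous retroviruses, fell (−0.77), and Sall4, a zinc finger factor of ES cells (−0.19, adjusted p 0.038). Lin28a, an RNA-binding protein that blocks let-7 maturation, stood at 26256 and 26981 in ES and 24646 and 25309 in ELA and was not called (−0.09), though it was called lower with the deposited size factors (−0.22, adjusted p 0.0395). Its paralogue Lin28b had 1045 and 1119 in ES and 5087 and 5311 in ELA, a 4.8-fold rise. The Lin28b groups were widely separated, and those of Lin28a differed by little more than their own spread. Cdh1 (E-cadherin), the adhesion protein of epithelial and pluripotent cells, rose by 0.65 and Epcam by 0.29. Sall1 rose by 0.55, Hcfc1, a chromatin-associated co-regulator, by 0.93 and Zfp281, a zinc finger factor of the exit from the naive state, by 0.19. After correction Sall1, Hcfc1 and Zfp281 stood at 0.01, −0.17 and −0.07. Zfx and Zfp143 stood at 0.03 and 0.14 and were not called. After correction Zfx was called lower (−0.64) and Zfp143 higher (0.39), and Zfp143 was called higher without ELA replicate 1 too (0.22, adjusted p 0.0279). The calls of Sall4 and Zfp281 were lost without either ES replicate and without ELA replicate 2.

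Formative and primed genes gained ribosome-bound RNA. Of 9 measured of 29 listed, 7 rose and 1 fell, 4 of them rising beyond 2-fold, with a median of 0.92 (corrected 0.52 with 5 higher and 2 lower, median length 4320 bases, total RNA 0.70). Dnmt3b had 11853 and 13121 in ES and 105512 and 109217 in ELA, an 8.6-fold rise (3.11, SE 0.08, adjusted p 3.88e-19). Pim2, a serine/threonine kinase of the primed state, had 1163 and 1189 in ES and 11323 and 10568 in ELA. Sox11, a Sox factor also found in neural progenitors, had 2078 and 2018 in ES and 8846 and 8396 in ELA. In these genes the ELA values stood several times above the ES values with small spread, with rises of 9.31-fold for Pim2 and 4.21-fold for Sox11. Zic5, a zinc finger factor of the epiblast and early neural tissue, rose by 1.14, and Tead2, a transcription factor of the Hippo pathway, by 0.65. Dnmt3a, the other de novo methyltransferase, rose by 0.92. Its longest transcript has 9685 bases, and relative to genes of that length the change was −0.30. Grhl2 rose by 0.24 (corrected −0.17), a call lost without either ES replicate, and Etv1 was not called (0.11). Rbpj, which carries Notch signals to DNA, fell from 23891 and 25909.9 in ES to 8109 and 8497 in ELA (−1.58, corrected −1.96).

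Markers of other cell types were scarce among the genes with values. Of 17 mesendoderm markers, 0 were measured, so the label could not be checked against them. Of 5 neural markers measured of 24 listed (median 1.11, corrected 0.24 with 3 higher and 1 lower), 4 rose: Nes (nestin, an intermediate filament of neural progenitors) by 2.10, Dll1 by 1.22, Gli3 by 1.11 and Map2 by 0.81, while Ncam1 stood at −0.04. Their summed normalised counts were 6256 and 5791 in ES and 13554 and 14285 in ELA, so both ELA values were above both ES values. Corrected for length, Nes and Dll1 stood at 1.31 and 1.07, and Gli3 and Map2 at 0.14 and 0.24. Of 21 primitive endoderm markers 3 were measured and all 3 were called higher: Lrp2 (megalin), an endocytic receptor, from 10269.6 and 8914 in ES to 61836 and 59152 in ELA (2.66), and the laminin chains Lamb1 and Lama1 by 0.32 and 0.22. Corrected for length, Lamb1 and Lama1 were lower (−0.35 and −1.02), and in total RNA too (−0.61 and −0.80). The call of Lama1 was lost without either ES replicate or ELA replicate 1, and that of Lamb1 without ES replicate 2. The summed counts of the 3 genes, most of them of Lrp2, were 18591 and 16707 in ES and 71823 and 68850 in ELA, and Gata4, Gata6 and Sox17 were not in the table. Absence from this filtered table does not show that a gene was silent: Sox2, Esrrb, Zfp42, Fgf5 and Otx2 were not in it either. The fibroblast marker Vim (vimentin), 1 of 14 listed, fell from 5467 and 5223 in ES to 1918 and 1873 in ELA (−1.49). Of 2 trophectoderm markers, Fgfr2 rose by 1.38 and Peg10 fell (−0.37), with summed counts of 25527 and 23791 in ES and 22648 and 21313 in ELA. The part of other cell types in the changes given here was not tested. Of 3 germline genes, Sycp3 fell (−0.90), and Stag3 (−0.21) and Ddx4 (−0.13) were not called.

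In the LIF pathway, 3 of 6 measured genes fell, and they were the receptor Lifr, the transducer Stat3 and the Stat3 target and feedback inhibitor Socs3. Socs3 had 1763 and 1900.3 in ES and 250.3 and 250.4 in ELA, a 7.32-fold fall (−2.87, adjusted p 8.87e-16). Stat3 had 3460.1 and 3610.2 in ES and 1149 and 1078 in ELA and Lifr 8556 and 8208 in ES and 2749 and 2619 in ELA. In these 3 genes each ELA value lay far below the ES values, with falls of 3.17-fold for Stat3 and 3.12-fold for Lifr. The 3 that rose were the immediate early factor Fos (1.88), the phosphatase Ptpn11 (0.72) and the kinase subunit Prkaa1 (0.42), of which Ptpn11 was not called after correction (0.11). The median of the list was −0.61 and, corrected for length, −1.12 (2 higher and 3 lower).

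FGF and ERK genes moved both ways (8 higher and 8 lower of 21, median −0.06), and after correction 5 were higher and 11 lower (median −0.31). At the ligand and feedback end, Fgf4 fell (−2.64) and Spry4, an inhibitor of receptor signalling that ERK itself induces, had 7646 and 8516 in ES and 1565 and 1449 in ELA (−2.42). Etv5, an ETS factor induced by ERK, fell (−0.74) and the adaptor Grb2 (−0.74). The receptors rose: Fgfr1 had 2021 and 1939 in ES and 5525 and 4447 in ELA (1.32) and Fgfr2 1532 and 1666 in ES and 4133 and 4188 in ELA (1.38). The groups did not overlap in either. Nf1 (neurofibromin), which turns Ras off, rose by 2.50 and Braf, the kinase below Ras, by 1.40; their long transcripts had corrected changes of 1.21 and 0.29.

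WNT genes mostly rose. Of 14 measured, 11 rose and 2 fell, 6 rising beyond 2-fold, with a median of 0.64 (corrected 0.24 with 7 higher and 4 lower, total RNA 0.72). Prickle1, a cytoplasmic protein of planar cell polarity, had 240.2 and 270.5 in ES and 4023 and 4362 in ELA, a 16.4-fold rise (4.03, SE 0.11, corrected 3.77). The receptor Fzd3 had 672 and 612 in ES and 4240.2 and 4070.5 in ELA (2.69, corrected 2.63), and the atypical cadherin Celsr2 rose by 2.74. In Prickle1 and Fzd3 the ELA values were many times the ES values. Amer1, an APC-binding regulator of β-catenin, rose by 1.94, Bcl9, a β-catenin co-activator, by 1.62, the co-receptor Lrp6 by 1.24 and Ctnnb1 (β-catenin) by 0.55. Lrp6 was not called after correction (0.14). The kinase Csnk1a1 and the scaffold Dvl2 fell (−0.56 and −0.38).

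In the TGF-β, Nodal and BMP pathway 7 of 14 rose and 4 fell (median 0.37, corrected 0.18 with 7 higher and 4 lower). Those that fell were Tdgf1, Bmp4, and the transcriptional inhibitors Tgif1 (−0.94) and Skil (−0.93). Those that rose included the receptors and transducers Acvr2b by 1.28, Bmpr1a by 0.68, Tgfbr1 by 0.61, Smad5 by 1.47 and Smad4 by 0.53. The transducers Smad1 and Smad2 and the target gene Id1 were not called (0.11, −0.11 and 0.21). Ltbp1, which holds latent TGF-β in the matrix, rose by 2.03. In the Notch pathway 8 of 9 rose and 1, Rbpj, fell (median 0.98, corrected 0.30 with 5 higher and 2 lower). The receptor Notch2 had 2264 and 2290.3 in ES and 10234 and 8669.7 in ELA, with no overlap of the groups (2.05, corrected 0.71). Notch1 and Notch3 rose by 1.15 and 0.98, and their corrected changes were −0.17 and −0.20. The ligand Dll1 rose by 1.22 and the ligand-activating ubiquitin ligase Mib1 by 1.46.

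Hippo genes had a median of 0.79 (corrected 0.45 with 8 higher and 2 lower), with 7 of 10 higher and 1 lower. The angiomotins Amotl1 and Amotl2, which hold Yap1 in the cytoplasm, rose by 1.64 and 0.97, the kinase Lats1 by 1.37 and Yap1 by 0.52. Fat1, a giant cadherin upstream of the pathway, had 27491 and 24166 in ES and 103727 and 105256 in ELA (2.02, corrected 0.46), and its total RNA changed by less (0.34, difference 1.67, adjusted p 1.39e-11). Tead1 fell (−0.56) while Tead2 rose, as given above. In PI3K and mTOR signalling 10 of 14 rose and 2 fell, with a median of 1.10. After correction 6 were higher and 5 lower, with a median of 0.07 (median length 7004 bases). The receptor Igf1r had 2449 and 2161 in ES and 12663 and 12978 in ELA (2.48, corrected 2.15). Each ELA value lay far above the ES values. Mtor and Rictor rose by 1.23 and 1.28, and stood at 0.09 and 0.22 after correction. Pik3c2a, a class II PI3K, and Deptor, an inhibitor of mTOR, rose by 1.66 and 1.32. Rheb, the GTPase that activates mTORC1, fell from 2587 and 2672 in ES to 1071 and 1021 in ELA (−1.33). Its total RNA, without ELA input replicate 1, was not called (0.19, difference −1.52).

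Genes of cell contact and matrix moved both ways. Beyond 2-fold, 3 of 22 junction genes and 3 of 16 integrin and matrix genes rose (13.6% and 18.8%, against 15.4% of all genes). In each list 1 gene fell beyond 2-fold. In junctions and polarity 13 of 22 rose and 5 fell (median 0.44, corrected 0.09 with 10 higher and 9 lower). Mpdz, a scaffold of apical junctions, had 1127 and 1006 in ES and 9831 and 8956 in ELA, an 8.81-fold rise (3.14, adjusted p 3.64e-18). Podxl (podocalyxin), an apical sialomucin that lines the lumen of the epiblast, had 2497 and 2338 in ES and 12623 and 13012 in ELA. The groups stood far apart in both, and Podxl rose 5.3-fold (corrected 1.83). Pvrl1 (nectin-1) rose by 1.90. The tight junction scaffolds Magi3 and Magi1 rose by 0.94 and 0.92, and stood at 0.31 and 0.18 after correction, where Magi1 was not called. The actin-linked junction proteins Ctnna1 (α-catenin) and Vcl (vinculin) fell (−1.23 and −0.89). In integrins and matrix 10 of 16 rose and 5 fell, with a median of 0.43. After correction 5 were higher and 9 lower, with a median of −0.43 (median length 6419 bases). Fras1 and Frem2, partners in 1 basement membrane complex, rose: Fras1 had 324 and 319.9 in ES and 4392 and 4425 in ELA and Frem2 2907 and 2369 in ES and 13939 and 13785 in ELA. Neither overlapped between groups (changes 3.77 and 2.40, corrected 2.14 and 0.96). Fibronectin (Fn1) and its receptor chain Itga5 fell (−0.94 and −1.54), and Itgb1 (−0.54). Itga6, a laminin receptor chain, rose by 0.92. Vcan (versican), a matrix proteoglycan, rose by 1.48, but by 0.16 after correction.

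Cytoskeleton genes moved both ways. Of 34 actin, myosin and spectrin genes, 14 rose and 11 fell, 12 and 9 of them beyond 2-fold (median −0.03, corrected −0.08 with 15 higher and 15 lower). The small proteins Tmsb4x (thymosin β4, an actin monomer binder), Myl12a (a myosin light chain) and Cfl1 (cofilin) fell (−2.52, −1.68 and −1.44). The large Dst (dystonin), Sptbn1, Myh10 and Myo6 rose by 2.54, 1.64, 1.63 and 1.62. Among kinesins, dyneins and mitotic genes 23 of 36 rose and 7 fell (median 0.68, corrected 0.24 with 20 higher and 10 lower). The neuronal kinesins Kif1a, Kif21b and Kif5c rose by 3.84, 2.62 and 1.66 (corrected 2.73, 1.34 and 1.00). Kif1b rose by 1.88, the kinetochore protein Casc5 by 1.46, and the dynein heavy chain Dync1h1 by 1.59, with a corrected change of −0.01. Birc5 (survivin) fell (−1.30), Ccnb1 (−0.62) and Cdk1 (−0.47).

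The 12 largest rises of the table, which were chosen for their size and carry no further test, lay between 3.62 and 4.69. They held both members of 1 gene family: Greb1l had 659 and 591 in ES and 15881 and 16391 in ELA, and its paralogue Greb1 156 and 142 in ES and 2414 and 2483 in ELA (changes 4.69 and 4.03). Enpp2 (autotaxin), which makes the signalling lipid lysophosphatidic acid, had 385 and 432 in ES and 8697 and 8954 in ELA. In Enpp2, as in the Greb1 genes, both ELA values stood many times above both ES values. Trio, an exchange factor for small GTPases, had 1928 and 2053 in ES and 38608 and 34076 in ELA (4.19). Ptpn13, a protein tyrosine phosphatase, had 3271 and 2941 in ES and 52414 and 53757 in ELA (4.10). Both genes were high in each ELA library and low in each ES library. Zfp608 rose by 4.69, the secreted protease Adamts15 by 4.17, Syne2 (nesprin-2), which joins the nucleus to actin, by 3.79, and Setbp1 by 3.62, and the other 3 were Prickle1, Kif1a and Fras1. After correction the 12 stood between 2.05 and 4.56.

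The 12 largest falls, chosen in the same way, lay between −6.19 and −2.96. Of these, 4 were on the naive list: Tdgf1 (also on the TGF-β, Nodal and BMP list), Tfcp2l1, Nanog and Dppa2. Hspb1, a small heat shock protein, had 3402 and 3362 in ES and 118 and 83.9 in ELA (−5.07, SE 0.14). Pdgfc, a ligand of PDGF receptors, had 1674 and 1721 in ES and 65.5 and 70.5 in ELA (−4.62). Each was far lower in ELA, in both libraries. Hmces, which shields abasic sites in DNA, had 5623 and 5682 in ES and 525 and 469 in ELA (−3.51). Cd9, a tetraspanin of the ES cell surface, had 2675 and 2806 in ES and 345 and 309 in ELA (−3.07), and the adhesion receptor Icam1 fell (−2.96). AU018091, Lrrc2 and Enox1 fell (−4.48, −4.03 and −3.31). Corrected for length the 12 stood between −5.76 and −2.00.

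Chromatin remodellers and the enzymes that methylate and demethylate histones mostly gained ribosome-bound RNA before the correction for length, and Polycomb genes mostly lost it. In the lists of SWI/SNF and related remodellers, 16 of 24 rose, 11 beyond 2-fold, and 4 fell (median 0.89). Their median transcript length was 6979 bases, and after correction 10 were higher and 9 lower, with a median of −0.07. Arid2, a subunit of the PBAF complex, had 5724 and 5635 in ES and 22980.0 and 23008 in ELA (2.02, corrected 0.96). Pbrm1, of the same complex, had 6295 and 5528 in ES and 18906 and 21671 in ELA (1.78, corrected 0.93). In both the groups were separate and the change exceeded that of genes of like length. Chd7 and Chd1 rose by 1.87 and 1.49, and Smarcad1 and Hells fell (−0.57 and −0.35). Chd9 rose by 1.55 and Shprh by 1.53. Of 10 lysine demethylases 7 rose and 1, Kdm3a, fell (−0.77); Jmjd1c rose by 1.24 and Kdm5a by 1.19, with −0.02 after correction (list median 0.62, corrected 0.04 with 4 higher and 2 lower). Of 12 histone methyltransferases 9 rose, among them Kmt2e by 2.05 and Whsc1 by 1.69, and Smyd2 fell (−1.30). The median of that list was 0.69, and −0.14 after correction, with 4 higher and 6 lower. Kmt2d rose by 1.26 but stood at −0.69 after correction. Setd7 and Setd5 rose by 1.65 and 1.52, and stood at 0.89 and 0.83.

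Polycomb genes fell in 9 of 15 cases and rose in 4 (median −0.28, corrected −0.51 with 1 higher and 10 lower, median length 4213 bases). Eed, which reads and propagates H3K27 methylation within PRC2, had 13963 and 13731 in ES and 3919 and 4376 in ELA (−1.74, adjusted p 2.31e-14). Mtf2, an accessory subunit of PRC2, had 27093 and 27354 in ES and 10217 and 10228 in ELA (−1.41). Both were lower in each ELA library by more than 2-fold. The PRC2 enzyme Ezh2 fell (−0.59), while its paralogue Ezh1 had 1297 and 1201 in ES and 3053 and 3032 in ELA and rose by 1.28. Suz12 stood at 0.00 and was not called. In PRC1, Rybp fell (−0.99) and Cbx7 (−0.38), and Bcor rose by 0.97 (corrected 0.17, not called). Histone acetyltransferases and deacetylases moved both ways (8 higher and 5 lower of 18): Kat6b, Kat2b and Ncoa3 fell (−1.62, −1.58 and −1.52), and Trrap, Crebbp and Ep300 rose by 1.68, 0.82 and 0.80. Among the deacetylases on the list, Hdac5 rose by 1.07. The median of that list was 0.06, −0.09 after correction (with 6 higher and 8 lower) and −0.06 with the deposited size factors. Of 13 DNA methylation and heterochromatin genes 7 rose and 5 fell, with a median of 0.32. After correction the direction of the list turned, to a median of −0.69 with 3 genes higher and 9 lower. Beside Dnmt3b and Dnmt3a, Smchd1 rose by 1.41, and Tet1, which oxidises 5-methylcytosine, fell (−0.56, corrected −1.97), as did Cbx1 (−1.46) and Mbd3 (−1.31).

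**Figure D3:**
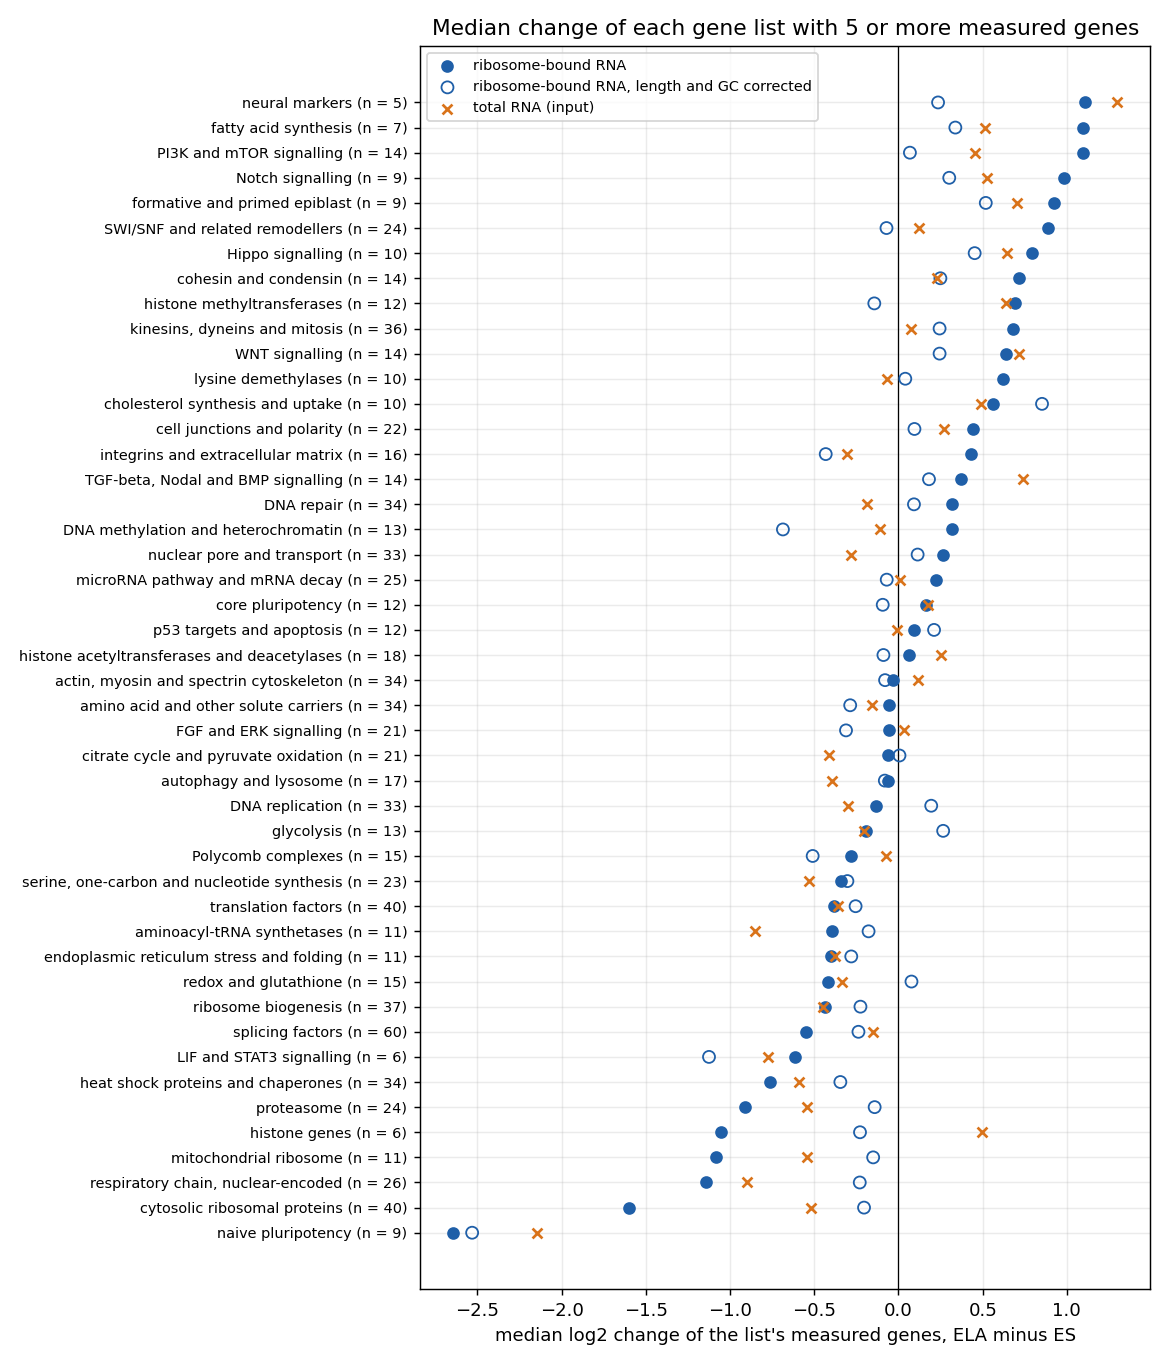
Median log2 change of each gene list with 5 or more measured genes: filled blue circles for ribosome-bound RNA, open circles for ribosome-bound RNA after the length and GC correction, and orange crosses for total RNA. The naive list lies farthest to the left at −2.64 and stays there after correction (−2.53), while the ribosomal protein list moves from −1.60 to −0.20 and the SWI/SNF list from 0.89 to −0.07.

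Genes of genome maintenance divided within each list. Of 14 cohesin and condensin genes 10 rose and 3 fell (median 0.71, corrected 0.25 with 9 higher and 3 lower): Stag2 had 13119 and 12649 in ES and 33064 and 33872 in ELA (1.38), Ncapg and Pds5b rose by 1.08 and 1.01, and Rad21 fell (−0.41). In DNA replication 13 of 33 rose and 15 fell (median −0.13). After correction the median was 0.19, with 16 genes higher and 7 lower. The catalytic subunits Pole and Pola1 and the topoisomerase Top2a rose by 1.22, 0.95 and 1.03, and the fork protector Tipin fell from 8140.1 and 8707 in ES to 2490.1 and 2627 in ELA (−1.72, corrected −0.64). Gins1, of the replicative helicase, and Orc6, of the origin recognition complex, fell (−1.10 and −0.91), and stood at 0.07 and −0.12 after correction. In DNA repair 19 of 34 rose and 9 fell (median 0.32, corrected 0.09 with 14 higher and 11 lower). The large kinases Prkdc and Atm rose by 1.69 and 1.45, Rad50 by 1.53, Brip1 by 1.30 and Brca2 by 1.36; relative to genes of like length Rad50 stood at 1.22 and Brca2 at 0.17. Xrcc5 (Ku80) fell (−0.79) and the uracil glycosylase Ung (−0.87). Of 6 histone genes 5 fell and 1 rose (median −1.05), and of the 5 with a known length 3 were lower and 2 higher after correction (median −0.23). In total RNA the median of the 6 was 0.50. Relative to total RNA, 6 of 6 were called lower on ribosomes (median difference −1.52), against 27.8% of all genes. H3f3a, an H3.3 gene, had 5880.0 and 6175 in ES and 2093 and 1888 in ELA (−1.60), and H1f0, the linker histone of differentiating cells, 430.3 and 514 in ES and 1573 and 1327 in ELA (1.62). Histone genes have near-identical copies and are uncertain. The linker histone Hist1h1a had 7415 and 8573 in ES and 4166 and 3376 in ELA, a fall (−1.09) that was a rise after correction (0.39) and in total RNA (1.49, or 1.31 without ELA input replicate 1). Hist1h2af, H2afv and H3f3b fell (−1.56, −1.02 and −0.64) and stood at 0.54, −0.24 and −0.23 after correction.

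The translation machinery lost ribosome-bound RNA. Of 40 cytosolic ribosomal protein genes measured, 39 fell, 36 of them beyond 2-fold, with a median of −1.60 against −0.01 over all genes. These are among the shortest transcripts, with a median of 869 bases, and the corrected median was −0.20, with 22 genes lower and 8 higher. In total RNA the median was −0.52. Rps16 had 7948 and 6822 in ES and 1128 and 994 in ELA (−2.80) and Rpl36 4501 and 4644 in ES and 1181 and 741 in ELA (−2.29). The ELA values lay well below the ES values in both, but Rpl36 was not called after correction (−0.18, against −1.17 for Rps16). Rps14, Rpl37a and Rpl38 fell (−2.21, −2.08 and −2.03), and stood at −0.64, −0.32 and −0.05 after correction. Rpl10a, the target of the antibody, was the gene not called: it had 23383 and 19871 in ES and 21959 and 16824 in ELA (−0.17, adjusted p 0.142), and its replicates overlapped between stages. It was called lower with the deposited size factors (−0.29, adjusted p 0.0146), without ELA replicate 1 (−0.36, adjusted p 0.0101), without ES replicate 2 (−0.29, adjusted p 0.0142) and with a replicate block (−0.17, adjusted p 0.0459). After correction for length it was called higher (1.04). Ribosomal protein genes have many processed pseudogenes that could share reads, so their values are uncertain.

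Translation factors fell in 28 of 40 cases and rose in 6 (median −0.38, corrected −0.25 with 7 higher and 22 lower). Eef1e1, a scaffold of the synthetase complex, had 3429 and 3515 in ES and 688 and 666 in ELA (−2.36). Eif1a, which helps to find the start codon, had 11768 and 12448 in ES and 3442 and 3629 in ELA (−1.78). The groups were separate in both. Eef1b2, Tpt1 and Btf3 fell (−1.51, −1.59 and −1.79). Naca, a chaperone of nascent chains at the ribosome exit, fell (−1.75, corrected −2.55). Gcn1l1, a ribosome-bound activator of the Gcn2 kinase, rose by 1.39, and the scaffold Eif4g1 by 0.75. Of 11 aminoacyl-tRNA synthetases 8 fell, led by Sars (−0.99) and Cars (−0.87), and Lars rose by 0.35 (median −0.39, corrected −0.18 with 2 higher and 6 lower). In ribosome biogenesis 23 of 37 fell and 9 rose (median −0.43, corrected −0.23 with 7 higher and 19 lower). The small snoRNP proteins Nhp2, Nop10 and Gar1 fell (−1.89, −1.81 and −1.40), and the large Utp20 and Mdn1 rose by 1.34 and 1.18. Ebna1bp2, a nucleolar protein of large subunit assembly, had 10964 and 10126 in ES and 2831 and 2670.3 in ELA (−1.94, corrected −1.73), and Mrto4 and Nop16 fell (−1.48 and −1.45).

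Splicing factors fell in 40 of 60 cases and rose in 12 (median −0.55, corrected −0.24 with 16 higher and 35 lower, median length 2999 bases). The small Sm proteins Snrpd2, Snrpg, Snrpf and Snrpe fell (−2.44, −2.07, −2.06 and −1.57), and stood at −0.77, −0.56, −0.67 and 0.05 after correction. The nuclear RNA-binding protein Hnrnpc fell (−1.50, corrected −1.20). Prpf8 and Sf3b3, large core spliceosome proteins, rose by 1.36 and 1.03 (corrected 0.50 and 0.80). In the microRNA pathway and mRNA decay 13 of 25 rose and 5 fell (median 0.22, corrected −0.07 with 6 higher and 8 lower). Mov10, a helicase that works with Argonaute, had 2169 and 2265 in ES and 457 and 351 in ELA (−2.47). Zfp36l2, which binds AU-rich elements and promotes decay, had 2480.5 and 2694 in ES and 6734 and 7271 in ELA (1.44, corrected 1.31). Both differed between stages in each library, in opposite directions. The GW182 genes Tnrc6b and Tnrc6c, which link Argonaute to deadenylases, rose by 1.63 and 1.38, and stood at 0.08 and 0.21 after correction. Smg1, the kinase of nonsense-mediated decay, rose by 1.48 and stood at 0.00 after correction.

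Energy metabolism showed a fall of the respiratory chain and opposite moves within glycolysis. Of 26 nuclear-encoded respiratory chain genes 23 fell and 0 rose, 16 falling beyond 2-fold (median −1.15). The median length was 1472 bases, the corrected median −0.23 (8 higher and 14 lower), and the median in total RNA −0.90. Uqcrb, of complex III, had 6839.8 and 7288 in ES and 1244 and 1226 in ELA (−2.51, corrected −0.68). Atp5g1, a gene for subunit c of the ATP synthase, had 627 and 647 in ES and 156 and 79 in ELA (−2.51, corrected −2.75). The stages were separate in both genes. Cox7b, of complex IV, fell (−1.96), and Ndufb10, of complex I (−2.39). Ndufs1 and Uqcrc2 were not called (0.15 and 0.04). Mitochondrial ribosomal protein genes fell in 9 of 11 cases and rose in 0 (median −1.08, corrected −0.15 with 3 higher and 5 lower). Mrpl12 fell (−1.57) and Mrps25 (−1.36), and Mrps21, lower (−1.08), stood at 0.86 after correction. In glycolysis 3 of 13 rose and 7 fell (median −0.19), and after correction 8 were higher and 4 lower (median 0.27). The glucose transporters went opposite ways: Slc2a1 had 10699 and 10272 in ES and 36528 and 41366 in ELA (1.89) and Slc2a3 35577 and 38469 in ES and 20647 and 18845 in ELA (−0.91). Neither overlapped between stages, and total RNA changed by 1.30 and −1.17. Pfkm, the muscle-type phosphofructokinase, rose by 1.76, Aldoa fell (−0.66, corrected 0.03), and Pkm stood at −0.01 and was not called. Citrate cycle genes moved both ways (6 higher and 9 lower of 21, median −0.06, and 9 higher and 4 lower after correction, median 0.01), with the pyruvate dehydrogenase subunits Pdha1 and Pdhb lower (−1.23 and −1.17). The subunits Idh3a and Idh3b of the cycle's NAD-linked isocitrate dehydrogenase fell (−0.73 and −0.79), and stood at −0.27 and −0.08.

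Sterol and fatty acid genes mostly rose. Of 10 cholesterol genes 8 rose and 0 fell, with a median of 0.56, a corrected median of 0.85 over the 9 with a known length (of which 7 were higher) and a median of 0.49 in total RNA. Hmgcs1, which makes the precursor of mevalonate, had 10033 and 10638 in ES and 31588 and 31268 in ELA (1.60, adjusted p 2.68e-14). Msmo1 and Sqle, enzymes of the later pathway, rose by 1.04 and 1.02. The groups were separate in these 3 genes. Srebf2, the transcription factor of the sterol genes, rose by 0.56 and stood at −0.08 after correction, and Idi1 rose by 0.56. Fdft1 and Insig1 were not called (0.03 and 0.09). Of 7 fatty acid genes 6 rose (median 1.10, corrected 0.34 with 5 higher and 0 lower). Acsl4, which activates arachidonic acid for membrane lipids, had 3936 and 3862 in ES and 25938 and 26929 in ELA (2.76, corrected 2.38). Acaca and Fasn rose by 1.49 and 1.38, and stood at 0.34 and 0.05 after correction. The desaturase Fads1 rose by 1.10 (corrected 1.04).

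Serine, one-carbon and nucleotide genes fell in 16 of 23 cases and rose in 5 (median −0.34, corrected −0.30 with 5 higher and 13 lower). Beside Tdh, the mitochondrial folate enzyme Mthfd2 had 3420.4 and 3288 in ES and 797 and 997 in ELA (−1.91) and the serine synthesis enzyme Psat1 6401 and 6822 in ES and 2391 and 1953 in ELA (−1.61). Both were lower in each ELA library. Nme2 and Nme1, nucleoside diphosphate kinases, fell (−2.34 and −1.63). Gldc, of the glycine cleavage system, and Cad, which begins pyrimidine synthesis, rose by 1.09 and 1.65. In redox genes 8 of 15 fell and 4 rose (median −0.42), and after correction 7 were higher and 5 lower (median 0.08); Sod1 fell from 17312 and 17518 in ES to 3128 and 2998 in ELA (−2.51, corrected −0.87). Gpx1, Txn1 and Prdx6 fell (−1.48, −1.23 and −1.14), and stood at −0.14, −0.03 and −0.71 after correction. Among solute carriers 13 of 34 rose and 15 fell (median −0.05, corrected −0.29 with 10 higher and 21 lower). The amino acid transporters Slc7a1 and Slc7a5 fell (−1.75 and −1.47), the creatine transporter Slc6a8 (−1.33), and the glutamate transporter Slc1a3 rose by 1.10. Slc22a23 had 221 and 198 in ES and 2208 and 1888 in ELA, the largest rise among the carriers (3.28).

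Chaperone and proteasome genes mostly fell. Of 34 heat shock proteins and chaperones 27 fell and 1 rose (median −0.76, corrected −0.34 with 6 higher and 20 lower). Hspe1, the mitochondrial co-chaperonin, had 13339 and 13671 in ES and 2712 and 2685 in ELA (−2.32), and Stip1, which joins Hsp70 to Hsp90, 23648 and 24387 in ES and 8387 and 8372 in ELA (−1.52). Each fell by more than 2-fold in both libraries. Dnajc8 and Dnajb6, J-domain co-chaperones, fell (−1.88 and −1.63). Tcp1, of the cytosolic chaperonin, and Hspa5 (BiP) were not called (0.02 and 0.12). Of 24 proteasome genes 22 fell and 1 rose (median −0.91, corrected −0.14 with 9 higher and 11 lower, total RNA −0.54). Psme1 fell (−1.48) and Psmc6 (−1.40), and Psme4, an activator with a long transcript, rose by 1.03. Endoplasmic reticulum genes moved both ways (4 higher and 6 lower of 11, median −0.40, corrected −0.28 with 3 higher and 6 lower), as did autophagy and lysosome genes (5 and 8 of 17, median −0.06, corrected −0.08 with 5 higher and 7 lower). Atg13 fell (−1.73) and Wdfy3 rose by 1.65, and Wdfy3 was not called after correction (0.10). Asns, the asparagine synthetase induced by Atf4, fell (−0.86), and the stress kinase Eif2ak3 (Perk) rose by 0.58. Of 12 p53 targets and apoptosis genes 6 rose and 6 fell (median 0.09, or −0.03 with the deposited size factors), and after correction 6 were higher and 4 lower (median 0.21). Mcl1, an anti-apoptotic Bcl2 protein, had 23107 and 24720.3 in ES and 5529.6 and 5076 in ELA (−2.17, corrected −2.16), and Btg2, an anti-proliferative p53 target, 727 and 764 in ES and 3143 and 3075 in ELA (2.06, corrected 2.30). These were the largest changes of that list in each direction. Bcl2l1 fell (−0.66), and Casp2, Ccng1 and Birc2 rose by 0.87, 0.82 and 0.75. Of 33 nuclear pore and transport genes 19 rose and 12 fell (median 0.26, corrected 0.11 with 15 higher and 12 lower), with Nup205 and Nup107 higher by 1.43 and 0.85 and Ranbp1 and Nup54 lower (−1.28 and −0.97). Ranbp1 was not called after correction (−0.13).

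Over all genes, ribosome-bound and total RNA changed largely in parallel. Pearson's r between the 2 changes over the 3160 genes, which are not independent replicates, was 0.746. In a fit of all 8 libraries the changes differed for 1776 genes (56.2%), with 899 higher and 877 lower in ribosome-bound RNA, 200 and 286 of them by more than 2-fold. Without ELA input replicate 1 they differed for 1927 genes (966 higher and 961 lower), of which 1693 were called in the same direction with it, and r was 0.739. With input and Rpl10a-IP of the same stage and number taken as parts of the same lysate, 1941 genes differed (994 higher and 947 lower), and these held all of the 1776. Naive genes fell in both fractions, with 6 of 9 falling further on ribosomes, and the formative list had medians of 0.92 and 0.70, with 2 of 9 higher on ribosomes. Ribosomal protein genes fell further on ribosomes in 37 of 40 cases (median −1.60 against −0.52). In the ribosome biogenesis list the medians were −0.43 and −0.45, with 13 genes higher and 9 lower on ribosomes. Cholesterol genes had medians of 0.56 and 0.49. Other lists had medians of opposite sign, among them DNA repair (0.32 and −0.19) and lysine demethylases (0.62 and −0.07). So did integrins and matrix (0.43 and −0.31) and nuclear pore and transport (0.26 and −0.28). Relative to total RNA, 23 of 34 DNA repair genes were higher on ribosomes and 3 lower, and 10 of 10 lysine demethylases were higher. Without ELA input replicate 1 the total RNA medians of the naive, formative, ribosomal protein, ribosome biogenesis and cholesterol lists were −2.28, 0.83, −0.51, −0.52 and 0.54. Naive genes fell further on ribosomes in 6 cases, ribosomal protein genes fell further there in 37, and formative genes were higher there in 3. Length is also to be read beside these differences: the rank correlation of the difference with transcript length over 3120 genes was 0.443.

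**Figure D4:**
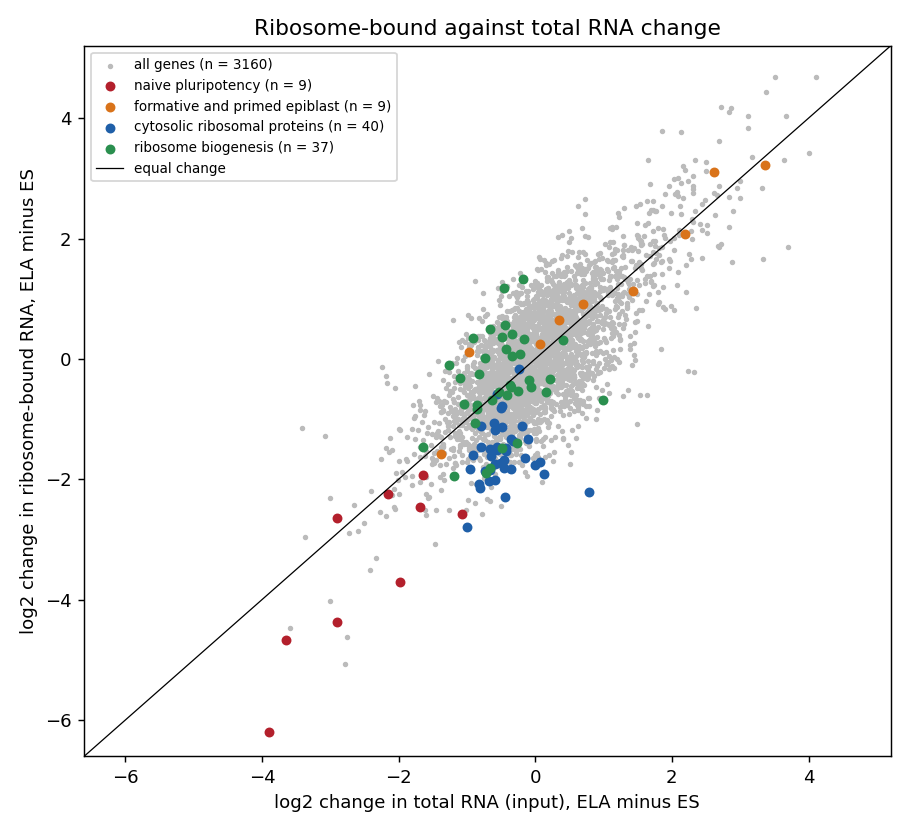
Log2 change in ribosome-bound RNA (vertical axis) against log2 change in total RNA (horizontal axis), ELA minus ES, 1 point per gene, with 4 lists in colour; the diagonal marks equal change. Points scatter along the diagonal (r 0.746), and most ribosomal protein genes lie below it.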

How the data were processed

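Ribosome-bound RNA was pulled down with an anti-Rpl10a antibody, depleted of ribosomal RNA, made into ScriptSeq libraries and sequenced. The authors deposited 1 table of normalised gene counts (signal: reads divided by a DESeq2 size factor per library), already filtered: the larger mean input was at least 50.0, and the SD of the replicate ratios of Rpl10a-IP over input was at most 20% of their mean in each stage. The authors' own means, SDs, ratios of Rpl10a-IP over input, fold changes and log2 changes, deposited in 26 further columns, were not used. The submitters' processing notes name TopHat2, HTSeq and DESeq2 and the build mm10, and the strand setting of counting is not given in the sources used here, so overlapping and antisense genes are uncertain. Some genes are not reported here.

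Counts were rescaled by trimmed means of M values (trim 0.3 and 0.05) over the 3160 genes, log2(count + 1) was taken, and limma 3.58.1 in R 4.3.3 (lmFit, eBayes with trend) was fitted to the 4 Rpl10a-IP libraries, with 2 residual degrees of freedom per gene beside a prior of 19.6. Log2 changes are on this scale, and folds are ratios of the group means of normalised counts. The difference from total RNA was an interaction term over 8 libraries, and p-values were adjusted by Benjamini-Hochberg over all genes. Length and GC content (longest GENCODE transcript, 3120 genes) were removed from each library by loess (span 0.5). The scripts were tested on simulated data. Alternatives were other scalings and pseudocounts, a read filter, fits of 8 or 7 libraries, a replicate block, for the difference also a lysate block (chosen after seeing the data), and leaving out each library.

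The genes and the 51 gene lists (50 with a measured member) were chosen with earlier results of these data known. Named genes were, by rule, the 12 largest calls each way with a mean of at least 50 reads, all measured naive, core and formative genes, up to 6 of the largest calls from each other list with, for other cell types, the 3 with most reads, Rpl10a, and the 5 highest and 5 lowest differences between fractions. Further list members were named after their values were seen: Birc5, Bmpr1a, Cbx7, Ccnb1, Cdk1, Cfl1, Crebbp, Csnk1a1, Ctnnb1, Ddx4, Dvl2, Eif4g1, Ep300, Etv5, Ezh2, Fdft1, Gcn1l1, Gldc, Grb2, Hells, Hspa5, Id1, Insig1, Itgb1, Lars, Mdn1, Mtor, Myh10, Myo6, Ncam1, Ndufs1, Pkm, Prpf8, Psme4, Rad21, Sf3b3, Skil, Slc1a3, Slc6a8, Smad1, Smad2, Smad4, Smarcad1, Stag3, Suz12, Tcp1, Tead1, Tet1, Tgfbr1, Tgif1, Ung, Uqcrc2, Utp20, Vcl, Xrcc5 and Yap1.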

Additional observations from a re-analysis of the deposited data

Results flagged for a closer look

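For 1776 genes the change between stages differed between ribosome-bound and total RNA by a test of the difference itself (limma interaction term over 8 libraries). The differences below are the 5 lowest and the 5 highest among genes with a mean of at least 50 reads in the ELA input libraries, chosen for their size, and the ELA input libraries are shallow. Without ELA input replicate 1 these genes stood between −2.68 (Rps14) and −2.17 (Sfr1) and between 1.70 (Fat1) and 2.11 (Dst), and genes other than these then lay beyond Sfr1 and Fat1. The minimum of reads removes genes low in ELA total RNA, so it bears on the direction of total RNA in the genes shown: below it were Tdgf1 (difference −2.31), Hspb1 (−2.28) and Brip1 (2.16), each beyond some of those given. Their causes were not tested.

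Rps14, a protein of the small ribosomal subunit, stood at −2.21 on ribosomes and at 0.78 in total RNA, or 0.47 without ELA input replicate 1 (difference −3.01, adjusted p 1.34e-11). The linker histone gene Hist1h1a stood at −1.09 and 1.49 (difference −2.59, adjusted p 1.04e-13). Trip4, a transcriptional co-activator, stood at −0.22 and 2.33 (difference −2.56, adjusted p 1.3e-13). Ubqln2, an adaptor to the proteasome, stood at −0.20 and 2.24 (difference −2.45, adjusted p 8.97e-12). Sfr1, a homologous recombination protein, stood at −1.74 and 0.51 (difference −2.26, adjusted p 1.3e-13).

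The highest differences were those of Syne2 (3.79 on ribosomes and 1.85 in total RNA, difference 1.93, adjusted p 5.61e-11), Lrp2 (2.66 and 0.73, difference 1.92, adjusted p 3.95e-12) and Dst (2.54 and 0.62, difference 1.91, adjusted p 3.49e-10). Fat1 changed by 2.02 and 0.34 (difference 1.67, adjusted p 1.39e-11), and Frem2, given above beside Fras1, by 2.40 and 0.73 (difference 1.66, adjusted p 1.15e-09).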

How the results depend on the processing

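The number of genes called stayed between 2394 and 2646 under the alternatives. The counts that moved most were those beyond 2-fold after the correction for length and GC content, with or without the replicate block: for ribosome-bound RNA 520 genes in place of 931 (247 higher and 273 lower), and for the difference from total RNA 264 in place of 486 (131 higher and 133 lower). Fewer genes, 3120, were tested there. The same correction, with the same values under the block, turned the direction of 24 named genes. Zfp281 stood at −0.068, Zfx −0.64, Hcfc1 −0.17, Dnmt3a −0.30, Grhl2 −0.17, Lamb1 −0.35, Lama1 −1.02, Notch1 −0.17, Notch3 −0.20, Dync1h1 −0.015, Kdm5a −0.021, Kmt2d −0.69, Srebf2 −0.077 and Atg2b −0.35. On the other side, Sycp3 stood at 0.20, Gins1 0.071, Hist1h2af 0.54, Hist1h1a 0.39, Kars 0.029, Snrpe 0.049, Aldoa 0.031, Tpi1 0.22, Mrps21 0.86 and Rpl10a 1.04. Zfx also turned with the deposited size factors (−0.098) and with total reads (−0.016), Etv1 with the deposited size factors (−0.017), and Rpl10a without ELA replicate 2 (0.027, against −0.36 without ELA replicate 1, where it was called). Zfx and Etv1 were not called there. The calls of 24 other named genes were lost under this correction (adjusted p from 0.0507 for Brca2 to 0.964 for Smg1): Sall1, Gli3, Ptpn11, Lrp6, Magi1, Vcan, Orc6, Brca2, Kdm2a, Bcor, Rpl36, Rpl38, Tnrc6b, Smg1, Suclg1, Idh3b, Mrpl46, Fasn, Elovl6, Gpx1, Txn1, Hyou1, Wdfy3 and Ranbp1. Zfp143 was called there (0.39). With the block beside the correction, Prkaa1 (adjusted p 0.0502), H2afv (0.0507) and Hars (0.0743) were not called either, and Brca2 was. The cause was not tested.

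Leaving out 1 library gave 2394 to 2627 called genes for ribosome-bound RNA and 1434 to 1938 for the difference. Of the 296 named genes, 290 to 293 kept direction and side of the threshold in each of these fits. Pseudocounts of 0.1 and 10, median-of-ratios scaling and a minimum mean of 100 reads (which removed no gene from the fit of ribosome-bound RNA) changed none of the 296. With the deposited size factors the calls of Zfp281, Epcam, Grhl2, Lamb1 and Lama1 were lost and those of Lin28a (−0.22, adjusted p 0.0395) and Rpl10a (−0.29, adjusted p 0.0146) gained, and with all 8 libraries those of Sall4, Zfp281, Grhl2 and Lama1 were lost. Total reads as scaling lost the limma calls of Zfp281 (adjusted p 0.107) and Lama1 (adjusted p 0.0626).

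Between stages, replicates of the same number were not shown to be paired: the correlation of their deviations was −0.02 for Rpl10a-IP and 0.15 for input. Within a stage, the numbers of the input libraries come from their titles and descriptions, while the source names call both replicate 1. The methods took input from the lysate that was then precipitated, and the correlations of input with Rpl10a-IP were 0.17 in ES and 0.50 in ELA. A replicate block gave 2637 calls and, for the difference, 1895; of the named genes Rpl10a alone crossed the threshold (adjusted p 0.0459). A block by lysate, chosen after seeing the data, gave 1941 differences, and leaving out ELA input replicate 1 gave 1927. Tests on raw counts with edgeR and DESeq2 had been planned and were not run: the deposited values are normalised, and only ELA input replicate 1 holds values as low as 1 read, by which the step could be checked. Depth limits total RNA most, with 159587 and 410192 reads of the ELA input libraries on the genes of the table.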
